A study of Homo sapiens with 12 samples.

Results

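The human genome carries a family of WNT ligands, the Frizzled (FZD) receptors that bind them, and secreted antagonists of the SFRP and DKK families. Expression of these genes was followed in squamous carcinoma cells in which MUC1 was silenced. Members were taken by gene symbol alone, as any WNT gene numbered with an optional A or B, any numbered FZD gene, SFRP1 to SFRP5 and DKK1 to DKK4. This rule found 37 of the 39368 gene symbols in each count table, namely 19 WNTs, 10 Frizzleds, 4 SFRPs and 4 DKKs. Of the 37, 24 had enough counts to be tested in both cell lines, 4 only in CAL27 (FZD9, SFRP1, WNT16 and WNT8B), 1 only in HSC3 (DKK2) and 8 in neither.

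CAL27 and HSC3 are established HPV-negative lines of head and neck squamous cell carcinoma. Both carried a doxycycline-inducible vector for the same short hairpin RNA against MUC1 (tet-MUC1shRNA), selected in puromycin. Each line was grown for 7 days with 0.1% DMSO (vehicle) or with 500 ng/mL doxycycline (DOX), with 3 libraries in each of the 4 groups. CAL27 was kept in DMEM and HSC3 in MEM. The DOX libraries of CAL27 carry no replicate number in their table and are named by its columns 4 to 6. No library of DOX-treated cells with a control hairpin was analysed here, so the effects of DOX, of a hairpin and of MUC1 loss cannot be told apart, and line, medium and table cannot be told apart between the lines.

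MUC1 itself checked the labels. Its level was 58.4, 53.1 and 54.3 CPM (counts scaled to library size) in the CAL27 vehicle libraries and 2.92, 2.76 and 3.25 CPM with DOX, a log2 fold change of -4.21 (SE 0.067, edgeR adjusted p = 1.6e-19). HSC3 cells had little MUC1 before silencing, at 1.66, 1.97 and 1.64 CPM, and 0.310, 0.267 and 0.132 CPM with DOX (log2 fold change -2.88, SE 0.38, edgeR adjusted p = 2.0e-04). All 8 markers of squamous epithelium were present in every library. Their summed level was 6696 to 7009 CPM with vehicle and 3487 to 3767 CPM with DOX in CAL27, and 6804 to 7539 CPM and 3674 to 4097 CPM in HSC3, with KRT5, KRT14, KRT17 and TP63 lower and EPCAM higher in both lines (EPCAM log2 fold change 0.40, edgeR adjusted p = 6.7e-06 in CAL27, and 0.87, 2.8e-05 in HSC3). PERP was lower in CAL27 only, and CDH1 and SFN passed in neither. In RNA from whole cultures, fewer cells of a type and less RNA per cell cannot be told apart. Summed markers of other cell types were low but also moved with DOX. Fibroblast markers (COL3A1 at 0 throughout) went from 13.6 to 14.2 CPM with vehicle to 10.3 to 10.7 CPM in CAL27, and from 4.20 to 5.05 CPM to 5.97 to 9.34 CPM in HSC3. Endothelial markers, mostly CDH5, went from 14.9 to 15.3 CPM to 8.83 to 12.2 CPM in CAL27 and were at most 0.520 CPM in HSC3. Leukocyte markers ran from 0.249 to 5.35 CPM. The part of these shifts in the results was not tested. Library totals ran from 89730914 to 169065103 counts. An estimated 2.66 to 3.55 counts stood for 1 sequenced molecule in CAL27, 4.40 to 7.66 in HSC3 with vehicle and 9.14 to 17.5 in HSC3 with DOX. The highest of these values, and the largest distance from the other replicates of its group, belonged to HSC3 DOX replicate 1. Without it, 5 members rose and 9 fell in HSC3, in place of 4 and 9, and no HSC3 call was lost, while over all genes 6869 of 18697 passed in place of 5124 of 18021.

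WNTs are secreted, lipid-modified proteins that bind Frizzleds on the receiving cell. With the co-receptor LRP5 or LRP6 they stabilise beta-catenin, which then acts on target genes with TCF/LEF factors, and with co-receptors such as ROR1 and ROR2 they can act on cell shape and polarity without beta-catenin. SFRPs bind WNTs through a domain related to that of the Frizzleds, while DKK1, DKK2 and DKK4 bind LRP5 and LRP6 and DKK3 is a divergent relative. In stratified squamous epithelium, WNT signalling is known for its part in maintaining basal cells and forming appendages such as hair and taste papillae.

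The 250 bases before the transcription start are shown for DKK1 and for WNT10A and WNT5A, an antagonist that rose and ligands that fell with DOX in both lines, so that the regions can be compared. The table used holds no entry for WNT7B or FZD10. They come from RefSeq on GRCh38.p14 and read 5′ to 3′ on the strand of the gene. DKK1 is at chr10:52314031-52314280 (plus strand), WNT10A at chr2:218880602-218880851 (plus strand) and WNT5A at chr3:55487307-55487556 (minus strand, the upstream of 2 listed starts). Capitals mark matches to the TCF/LEF core.
DKK1: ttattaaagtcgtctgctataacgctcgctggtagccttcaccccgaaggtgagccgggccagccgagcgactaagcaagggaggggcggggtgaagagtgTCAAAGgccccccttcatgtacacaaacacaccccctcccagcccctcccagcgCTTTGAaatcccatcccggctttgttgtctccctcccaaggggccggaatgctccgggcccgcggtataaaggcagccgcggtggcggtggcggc
WNT10A: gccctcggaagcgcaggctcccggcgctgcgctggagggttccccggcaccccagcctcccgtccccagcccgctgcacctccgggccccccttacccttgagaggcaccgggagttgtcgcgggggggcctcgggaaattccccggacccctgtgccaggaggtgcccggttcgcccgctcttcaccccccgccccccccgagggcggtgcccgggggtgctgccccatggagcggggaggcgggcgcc
WNT5A: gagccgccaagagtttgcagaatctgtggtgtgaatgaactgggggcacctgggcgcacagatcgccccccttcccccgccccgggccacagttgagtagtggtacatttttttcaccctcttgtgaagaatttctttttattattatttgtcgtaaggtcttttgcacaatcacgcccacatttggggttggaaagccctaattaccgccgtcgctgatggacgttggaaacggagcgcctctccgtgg
The TCF/LEF core searched was the letters CTTTGA on either strand. It was found in 1 of the 28 listed promoters that cover 25 of the 37 members, and in 11.2% of all 35116 promoters of this length. That promoter was DKK1, with matches starting -149 and -95 bases from the start. No promoter of a member held the STAT motif TTCNNNGAA (6.57% of all promoters) or the AP-1 motif TGANTCA (6.57%), both searched on either strand. These matches describe letters in a short window and nothing about binding.

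With vehicle, both lines expressed a small number of ligands at any height, and a different one led in each. Levels between genes are compared as RPKM, here CPM per kilobase of the canonical transcript. In CAL27, WNT7B made up 49.5% ± 1.15 (SD, n = 3) of the summed WNT RPKM, WNT10A 21.1% ± 0.605, WNT5A 9.11% ± 0.304 and WNT7A 8.63% ± 0.350. In HSC3, WNT7A led with 44.7% ± 1.54, followed by WNT10A at 21.5% ± 1.55, WNT7B at 20.9% ± 0.776 and WNT5B at 6.98% ± 0.423. WNT10A and WNT7B did not differ in HSC3 beyond their spread. FZD6, a receptor best known from planar polarity and hair patterning, held 68.9% ± 0.578 of the summed Frizzled RPKM in CAL27 and 71.4% ± 1.73 in HSC3. Next came FZD5 in CAL27 (10.9% ± 0.433) and FZD2 in HSC3 (14.7% ± 1.48). Of the antagonists, DKK1 stood at 50.7 ± 0.601 RPKM in CAL27 and 85.9 ± 9.39 in HSC3, and DKK3 at 45.1 ± 1.55 and 151 ± 2.20. DKK3 and FZD6 (42.7 ± 1.93 RPKM) overlapped in CAL27. A 47.5% share of the annotated exon length of DKK3 lies under the antisense gene USP47, and whether the counting used strand is not given in the sources used here, so the DKK3 level is uncertain.

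**Figure D1:**
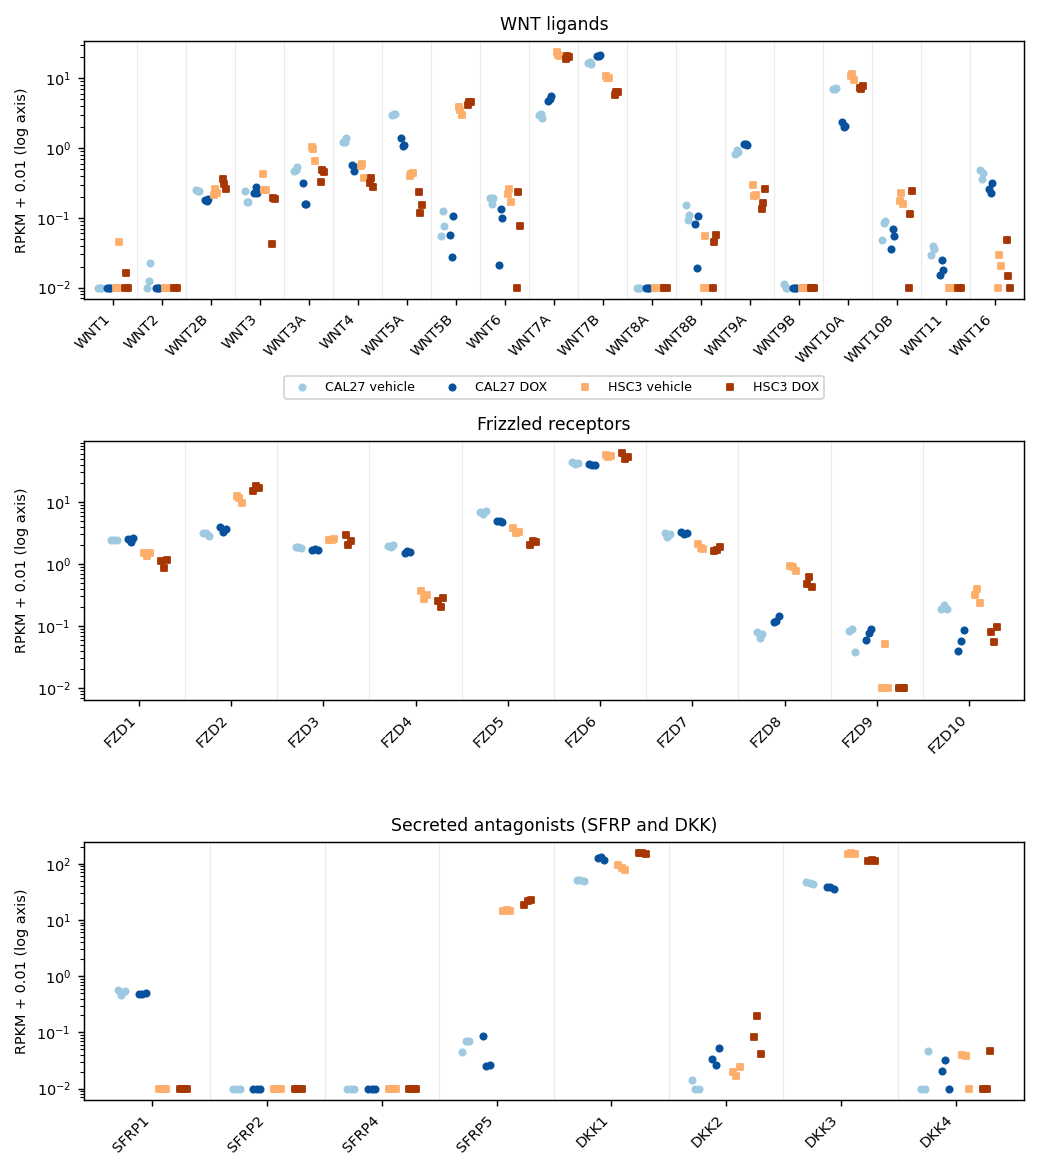
RPKM + 0.01 on a log axis for all 37 members in each of the 12 libraries (circles CAL27, squares HSC3, pale vehicle, dark DOX). WNT7A, WNT7B, WNT10A, FZD6, DKK1 and DKK3 sit high in both lines, SFRP5 and WNT5B are high in HSC3 only, and SFRP2, SFRP4 and WNT8A sit at the axis floor because they had 0 counts in every library.

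In DOX-treated CAL27 cells, 6 of the 28 tested members rose (DKK1, FZD2, FZD8, WNT7A, WNT7B and WNT9A) and 11 fell (DKK3, FZD4, FZD5, FZD6, FZD10, WNT2B, WNT3A, WNT4, WNT5A, WNT10A and WNT16), at an edgeR adjusted p under 0.05. Over all 19239 genes tested, 44.5% passed, with 22.6% higher and 21.8% lower. The median log2 fold change was -0.29 over the tested members and -0.01 over all genes. By more than 2-fold, DKK1 rose and WNT10A, WNT3A, WNT4, WNT5A and FZD10 fell, where 1.31% of all genes rose and 5.11% fell by that much. In HSC3 cells, 4 of 25 tested members rose (DKK1, DKK2, FZD2 and SFRP5) and 9 fell (DKK3, FZD1, FZD5, FZD8, FZD10, WNT3A, WNT5A, WNT7B and WNT10A), where 28.4% of all 18021 genes tested passed, with 13.0% higher and 15.4% lower. The median was -0.41 over the tested members and -0.01 over all genes. Past 2-fold were DKK2, which rose, and FZD10, WNT3A and WNT5A, which fell, where 1.58% of all genes rose and 4.40% fell by that much.

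**Figure D2:**
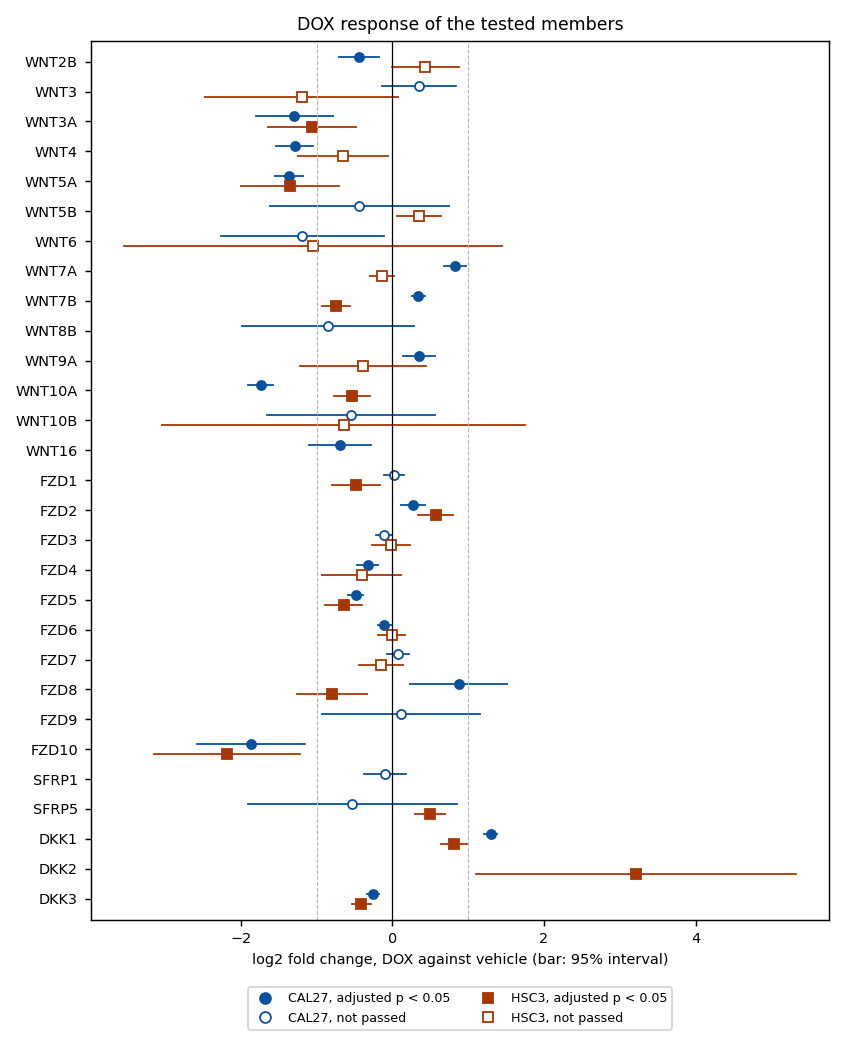
Log2 fold change (DOX against vehicle, edgeR) with its 95% interval for each tested member in CAL27 (blue circles) and HSC3 (orange squares), filled where the adjusted p was under 0.05. Dashed lines mark 2-fold. WNT3A, WNT5A, WNT10A, FZD5, FZD10 and DKK3 lie left of 0 and DKK1 and FZD2 right of 0 in both lines, while WNT7B and FZD8 lie on opposite sides.

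Among the ligands, WNT10A, WNT3A and WNT5A fell in both lines. WNT10A, a ligand required for tooth, hair and taste papilla development, had 14.3, 14.4 and 14.7 CPM in CAL27 with vehicle and 4.78, 4.08 and 4.21 CPM with DOX. It fell by 1.74 on the log2 scale (SE 0.078, edgeR adjusted p = 6e-13). In HSC3 the levels were 22.4, 23.8 and 19.1 CPM with vehicle and 15.1, 14.3 and 15.8 CPM with DOX, a smaller fall of log2 -0.54 (SE 0.11, edgeR adjusted p = 0.0031). The DOX libraries lay below every vehicle library in both lines. The neighbouring WNT6 gene ends upstream of WNT10A on the same strand (chr2:218859805-218874233 and chr2:218880852-218899581). WNT6 was low, with 28 to 44 counts in the CAL27 vehicle libraries and 2, 22 and 20 with DOX, and did not pass in CAL27 (log2 fold change -1.19, 95% interval -2.26 to -0.12, edgeR adjusted p = 0.068) or in HSC3 (-1.05, -3.54 to 1.45, adjusted p = 0.57).

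WNT5A, the best studied ligand of the beta-catenin-independent arm, had 17.5, 17.6 and 18.2 CPM in CAL27 with vehicle and 8.21, 6.14 and 6.37 CPM with DOX (log2 fold change -1.37, SE 0.087, edgeR adjusted p = 3.6e-10). HSC3 had less of it, 2.25, 2.41 and 2.47 CPM with vehicle and 1.33, 0.638 and 0.827 CPM with DOX, and a fall of almost the same size (-1.35, SE 0.29, edgeR adjusted p = 0.0051). The groups did not overlap in either line, and the difference between the lines was 0.03 on the log2 scale (95% interval -0.57 to 0.62). Its close relative WNT5B did not pass in either line. It was near absent in CAL27 (4 to 28 counts over the 6 libraries) and stood at 8.62, 7.78 and 6.73 CPM in HSC3 with vehicle against 9.17, 10.2 and 10.2 CPM with DOX. All HSC3 DOX libraries were above the vehicle libraries, but the test was not passed (log2 fold change 0.35, SE 0.13, edgeR adjusted p = 0.076), and it passed without DOX replicate 1 (adjusted p = 0.022).

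WNT3A, the ligand most used to activate beta-catenin in the laboratory, was at 1.37, 1.43 and 1.59 CPM in CAL27 with vehicle and 0.917, 0.436 and 0.450 CPM with DOX (log2 fold change -1.30, SE 0.24, edgeR adjusted p = 0.00021). In HSC3 it was at 3.03, 2.85 and 1.93 CPM and then 0.957, 1.44 and 1.35 CPM (-1.06, SE 0.27, edgeR adjusted p = 0.012). No DOX library reached the lowest vehicle library of its line. The HSC3 call was lost without vehicle replicate 1 (edgeR adjusted p = 0.069) or vehicle replicate 2 (0.059). WNT4, a ligand of kidney and reproductive tract development, fell in CAL27 from 4.77, 4.78 and 5.44 CPM to 2.22, 1.84 and 2.08 CPM (log2 fold change -1.29, SE 0.11, edgeR adjusted p = 1.4e-08). Its HSC3 values of 2.15, 2.30 and 1.44 CPM with vehicle and 1.23, 1.45 and 1.06 CPM with DOX overlapped (-0.65, 95% interval -1.24 to -0.07, edgeR adjusted p = 0.095). The line by DOX interaction of WNT4 did not pass (log2 difference 0.64, edgeR adjusted p = 0.12), so a difference between the lines is not shown.

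The paralogs WNT7A and WNT7B, known from limb, reproductive tract, lung and brain vessel development, rose in CAL27. WNT7A went from 11.7, 12.1 and 10.8 CPM to 18.6, 20.4 and 22.2 CPM (log2 fold change 0.83, SE 0.072, edgeR adjusted p = 1e-08). WNT7B went from 66.1, 67.3 and 62.6 CPM to 83.3, 81.4 and 83.8 CPM (0.34, SE 0.041, edgeR adjusted p = 9.3e-07). Both genes had all DOX libraries above all vehicle libraries in that line. In HSC3, WNT7B fell instead, from 42.1, 40.2 and 39.5 CPM to 22.6, 25.1 and 25.3 CPM (-0.74, SE 0.085, edgeR adjusted p = 8.3e-05). WNT7A in HSC3 was at 93.4, 85.6 and 84.4 CPM with vehicle and 76.5, 83.1 and 80.3 CPM with DOX. These groups did not overlap, yet the gene did not pass (-0.14, 95% interval -0.30 to 0.02, edgeR adjusted p = 0.18).

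As WNT7B rose while WNT10A, WNT5A and WNT4 fell in CAL27, the WNT7B share of the summed WNT RPKM with DOX reached 65.3% ± 0.471 in that line. WNT7A then held 15.9% ± 1.32, WNT10A 6.59% ± 0.528 and WNT5A 3.68% ± 0.586. The sum itself was 33.4 ± 0.494 RPKM with vehicle and 32.1 ± 0.710 with DOX. In HSC3 the sum was 49.3 ± 3.10 RPKM with vehicle and 39.7 ± 1.70 with DOX, and WNT7A held 50.5% ± 0.879, WNT10A 18.5% ± 1.18, WNT7B 15.5% ± 0.337 and WNT5B 11.1% ± 0.177 with DOX. Shares of a sum move together, so a larger share is not by itself a higher level.

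**Figure D3:**
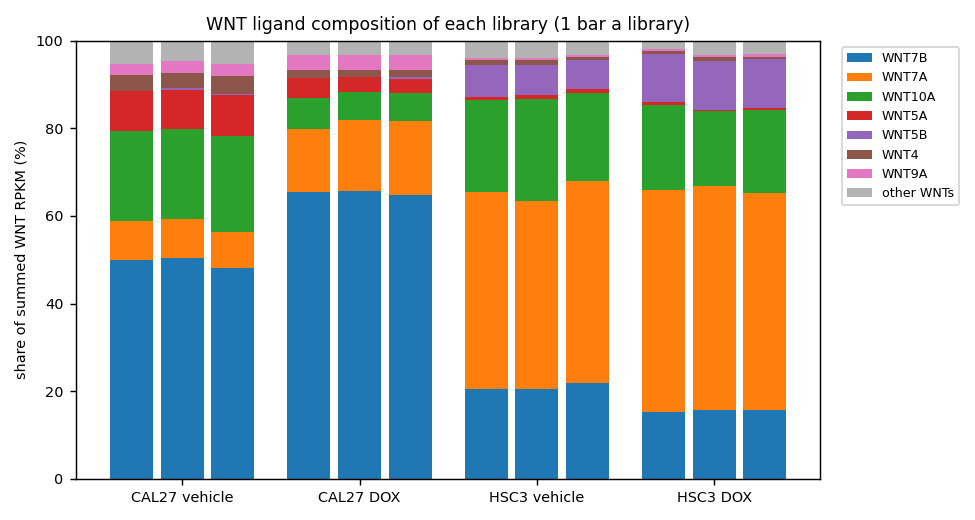
Share of the summed WNT RPKM taken by each ligand, in percent, with 1 stacked bar for each of the 12 libraries. In the CAL27 bars WNT7B (blue) grows from 49.5% to 65.3% with DOX as WNT10A (green) shrinks from 21.1% to 6.59%, and the HSC3 bars are led by WNT7A (orange).

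The other tested ligands moved less or were rare. In CAL27, WNT2B fell by 0.44 on the log2 scale (SE 0.13, edgeR adjusted p = 0.0075), from 2.65, 2.55 and 2.57 CPM to 1.92, 1.86 and 1.96 CPM, with no overlap. In HSC3 it was at 2.22, 2.74 and 2.41 CPM with vehicle and 3.94, 3.29 and 2.74 CPM with DOX (0.43, 95% interval -0.00 to 0.87, edgeR adjusted p = 0.14). Of its exon length, 21.5% lies under the antisense gene ST7L. WNT16, known for its effect on cortical bone, fell in CAL27 from a mean of 1.33 ± 0.197 CPM to 0.817 ± 0.151 (log2 fold change -0.70, edgeR adjusted p = 0.0062). WNT9A, a ligand of joint formation that lies beside WNT3A on chromosome 1, rose there from 3.50 ± 0.201 to 4.48 ± 0.0241 CPM (0.35, edgeR adjusted p = 0.0071), and lost its call without vehicle replicate 1 (0.052). In 1 fit over all 12 libraries, with 1 shared estimate of the spread, none of these CAL27 calls was kept (edgeR adjusted p = 0.071 for WNT2B, 0.56 for WNT16 and 0.30 for WNT9A). WNT3, WNT10B and WNT8B were tested and did not pass, with 0 to 160 counts in any library. For WNT3 in HSC3, all DOX libraries were below all vehicle libraries (log2 fold change -1.19, 95% interval -2.47 to 0.08, edgeR adjusted p = 0.16). WNT1, WNT2, WNT9B and WNT11 had at most 10 counts in any library, and WNT8A had 0 in all 12.

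Among the receptors, FZD10 fell by the most in both lines, though from a low level. The vehicle libraries of CAL27 held 82, 74 and 70 counts and the DOX libraries 10, 16 and 32, or 0.594, 0.683 and 0.577 CPM against 0.0956, 0.155 and 0.248 CPM. The log2 fold change was -1.86 (SE 0.34, edgeR adjusted p = 0.00014). Those of HSC3 held 116, 102 and 88 counts before and 34, 20 and 34 after DOX, or 1.01, 1.24 and 0.737 CPM against 0.229, 0.148 and 0.281 CPM (-2.18, SE 0.44, edgeR adjusted p = 0.0033). No DOX library overlapped the vehicle libraries. At an estimated 9.14 to 17.5 counts per molecule, the HSC3 DOX counts rest on very few molecules. With counts divided by counts per molecule, the log2 fold change in HSC3 was -2.22 (edgeR adjusted p = 0.0019). Scaling to library size undoes such a division, so the size of the fall could hardly change and this value adds no support. FZD5, a receptor with known functions in the eye and the intestine, also fell in both lines. It went from 47.7 ± 2.08 to 34.1 ± 0.494 CPM in CAL27 (log2 fold change -0.49, edgeR adjusted p = 3.3e-08) and from 24.0 ± 2.33 to 15.4 ± 1.24 CPM in HSC3 (-0.65, edgeR adjusted p = 0.0012).

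FZD2, a receptor that can respond to WNT5A, rose in both lines. CAL27 had 11.8, 11.9 and 10.4 CPM with vehicle and 15.1, 12.5 and 13.8 CPM with DOX (log2 fold change 0.27, SE 0.076, edgeR adjusted p = 0.0054), a call lost without vehicle replicate 3 (0.056) and in the fit over 12 libraries (0.060). HSC3 had 47.2, 43.0 and 36.9 CPM and then 57.5, 68.7 and 62.9 CPM (0.57, SE 0.10, edgeR adjusted p = 0.0019). All DOX libraries were above all vehicle libraries in both lines. The share of FZD2 in the summed Frizzled RPKM was 14.7% ± 1.48 with vehicle and 21.2% ± 3.23 with DOX in HSC3, while that of FZD6 was 71.4% ± 1.73 and 68.5% ± 3.51.

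FZD8, a receptor with high affinity for several WNTs, moved in opposite directions. In CAL27 it was rare, at 0.290, 0.222 and 0.264 CPM with vehicle and 0.430, 0.456 and 0.544 CPM with DOX, or 24 to 40 counts against 45 to 70, and rose (log2 fold change 0.88, SE 0.31, edgeR adjusted p = 0.025). That call was lost without vehicle replicate 2 (edgeR adjusted p = 0.082), vehicle replicate 3 (0.059) or the DOX library of column 6 (0.081). In HSC3 it fell from 3.77, 3.60 and 3.07 CPM to 1.89, 2.45 and 1.69 CPM (-0.80, SE 0.21, edgeR adjusted p = 0.015), and the call was lost without vehicle replicate 1 (0.071), vehicle replicate 2 (0.061) or DOX replicate 3 (0.055). The groups did not overlap in either line. FZD1 did not pass in CAL27, with 16.9, 16.6 and 16.9 CPM against 17.7, 15.5 and 18.1 CPM (0.02, 95% interval -0.11 to 0.16, edgeR adjusted p = 0.81). In HSC3 it fell from 10.3, 9.07 and 10.2 CPM to 7.62, 5.86 and 7.87 CPM (-0.48, SE 0.14, edgeR adjusted p = 0.027), a call lost without vehicle replicate 1 (0.11), vehicle replicate 2 (0.050), vehicle replicate 3 (0.10) or DOX replicate 2 (0.089).

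The other Frizzleds had smaller fold changes or did not pass. FZD4, the receptor for norrin in retinal vessels, fell in CAL27 from 14.2 ± 0.719 to 11.4 ± 0.447 CPM (log2 fold change -0.33, edgeR adjusted p = 0.00046, and 0.084 in the fit over 12 libraries), with 18.9% of its exon length under the antisense gene PRSS23, and did not pass in HSC3 (-0.41, 95% interval -0.92 to 0.11, edgeR adjusted p = 0.24). FZD6 passed in CAL27 with a log2 fold change of only -0.11 (edgeR adjusted p = 0.033), from 159 ± 7.20 to 148 ± 4.06 CPM. The FZD6 call was lost with DESeq2 (adjusted p = 0.054), without the low-count filter (edgeR adjusted p = 0.062), in the fit over 12 libraries (0.38) and without vehicle replicate 1 (0.13), vehicle replicate 3 (0.053), column 5 (0.11) or column 6 (0.052). In HSC3, FZD6 was at 204 ± 8.31 CPM with vehicle and 203 ± 24.3 with DOX (-0.01, 95% interval -0.19 to 0.17). FZD3, another receptor of planar polarity, and FZD7, known from stem cells, did not pass in either line, with log2 fold changes between -0.15 and 0.07. FZD9 had 8 to 24 counts in CAL27 and did not pass, and its only HSC3 library with counts held 8.

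Among the antagonists, DKK1 rose in both lines. It is a secreted inhibitor of LRP5 and LRP6 and a known target of beta-catenin. The CAL27 libraries held 92.3, 92.1 and 90.3 CPM with vehicle and 227, 234 and 215 CPM with DOX (log2 fold change 1.30, SE 0.041, edgeR adjusted p = 3.3e-15). The HSC3 libraries held 173, 153 and 139 CPM and 275, 275 and 268 CPM (0.81, SE 0.078, edgeR adjusted p = 2.3e-05). The groups were far apart in both lines. The level with DOX was 125 ± 5.56 RPKM in CAL27 and 151 ± 2.34 RPKM in HSC3. Of the DKK1 exon length, 10.2% lies under the antisense gene PRKG1-AS1.

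DKK2, which binds the same co-receptors, was almost silent. It had 4, 2 and 6 counts in the HSC3 vehicle libraries against 40, 90 and 14 in the DOX libraries (0.0347, 0.0243 and 0.0503 CPM against 0.270, 0.668 and 0.116 CPM). The test passed (log2 fold change 3.21, 95% interval 1.10 to 5.32, edgeR adjusted p = 0.027). At an estimated 4.40 to 7.66 counts per molecule with vehicle and 9.14 to 17.5 with DOX, these counts would stand for only a handful of molecules. The call was lost without DOX replicate 2 (log2 fold change 2.35, edgeR adjusted p = 0.24), vehicle replicate 1 (0.098), vehicle replicate 2 (0.11) or vehicle replicate 3 (0.070), and with the replicate number as a block (2.87, adjusted p = 0.11). CAL27 had 2, 0 and 0 counts before and 9, 6 and 20 after DOX, below the filter, and no fold is given. Without the filter the gene passed in CAL27 (edgeR adjusted p = 0.0026). DKK2 was therefore higher in each DOX library than in any vehicle library of its line, at levels near the limit of the data.

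DKK3, often reported as silenced in tumours, fell in both lines by little. It went from 114 ± 3.92 to 95.5 ± 3.49 CPM in CAL27 (log2 fold change -0.26, edgeR adjusted p = 2.6e-05) and from 381 ± 5.56 to 288 ± 6.55 CPM in HSC3 (-0.41, edgeR adjusted p = 0.00024), with the antisense overlap already given. SFRP5 was an HSC3 gene, at 27.7, 27.8 and 27.5 CPM with vehicle and 35.4, 40.2 and 42.0 CPM with DOX, and rose (0.50, SE 0.089, edgeR adjusted p = 0.0016). In CAL27 it had 3 to 15 counts and did not pass (-0.53, 95% interval -1.91 to 0.85, edgeR adjusted p = 0.56). SFRP1 had counts in CAL27 only, with 2.52, 2.05 and 2.36 CPM in CAL27 with vehicle and 2.14, 2.09 and 2.24 CPM with DOX (-0.10, 95% interval -0.38 to 0.17, edgeR adjusted p = 0.58). It had 0 counts in every HSC3 library. Taken alone, a library with 0 counts allows an expected number of up to 3 sequenced molecules, at 4.40 to 17.5 counts per molecule. SFRP2 and SFRP4 had 0 counts in all 12 libraries, and DKK4 had at most 4.

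**Figure D4:**
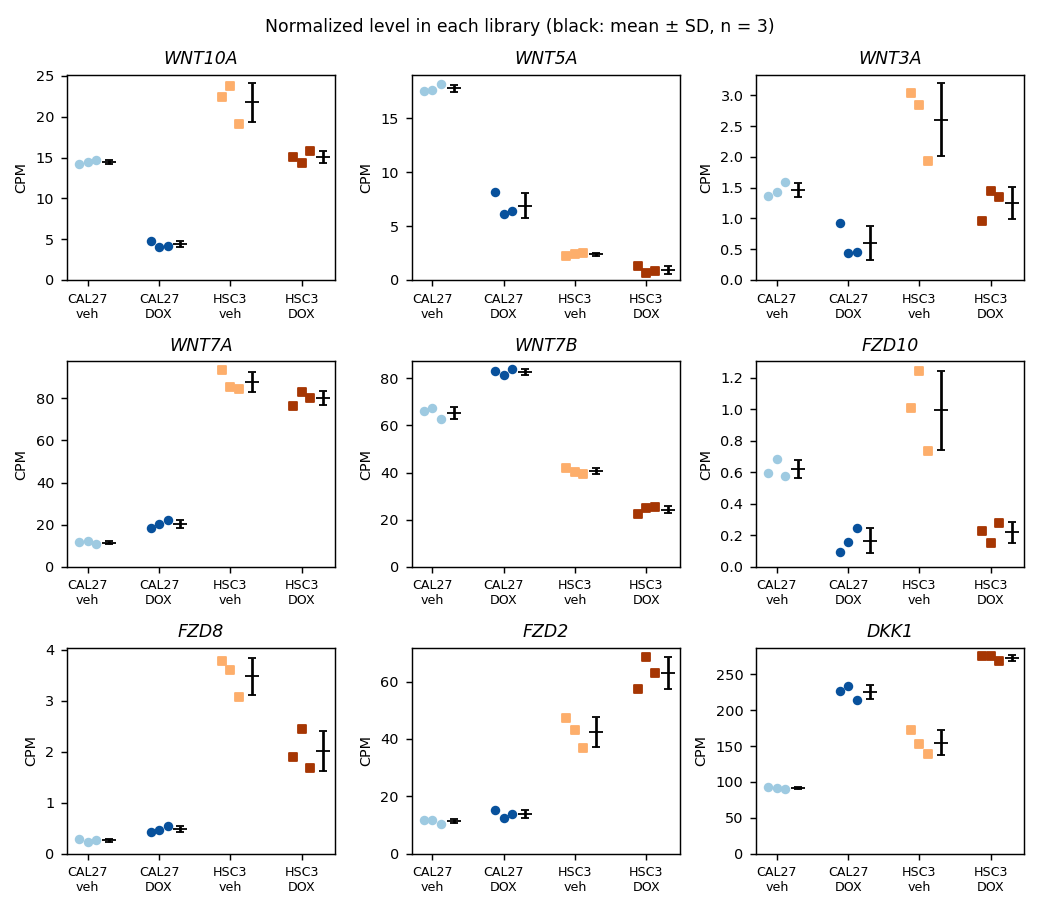
CPM in each library for 9 members, with the mean ± SD of each group of 3 in black (linear axes from 0). WNT10A, WNT5A, WNT3A and FZD10 fall and FZD2 and DKK1 rise in both lines, while WNT7B and FZD8 go up in CAL27 and down in HSC3 and WNT7A goes up in CAL27.

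Across the 24 members tested in both lines, 2 rose in both (DKK1 and FZD2), 6 fell in both (DKK3, FZD5, FZD10, WNT3A, WNT5A and WNT10A) and 2 went opposite ways (FZD8 and WNT7B). Over the 17164 genes tested in both lines the corresponding shares were 7.82%, 8.62% and 3.56%. The difference between the responses was then tested as an interaction in 1 fit of all 12 libraries. It passed for 7 of 29 members at an edgeR adjusted p under 0.05, where 20.6% of all 20694 genes passed (8.25% positive and 12.3% negative), and for 3 of them, WNT10A, FZD8 and WNT7B, with a size above 2-fold (5.21% of all genes). As log2 response in HSC3 minus that in CAL27, WNT10A (1.20, SE 0.13, edgeR adjusted p = 1.5e-05) and WNT2B (0.87, SE 0.23, 0.014) were positive. FZD8 (-1.67, SE 0.32, edgeR adjusted p = 0.0014), WNT7B (-1.08, SE 0.083, 5.2e-07), WNT7A (-0.96, SE 0.10, 9.5e-06), FZD1 (-0.50, SE 0.15, 0.031) and DKK1 (-0.48, SE 0.092, 0.0015) were negative. WNT10A thus fell less and DKK1 rose less in HSC3, where WNT10A and DKK1 also started higher. The FZD1 interaction was lost without CAL27 vehicle replicate 1 (edgeR adjusted p = 0.075), 2 (0.083) or 3 (0.073), CAL27 column 4 (0.082) or 6 (0.094), and HSC3 vehicle replicate 1 (0.082) or 3 (0.077). Of the members that fell in both lines, FZD10 (-0.30, 95% interval -1.55 to 0.95), WNT3A (0.23, -0.65 to 1.11) and WNT5A had intervals too wide to show that the lines responded alike.

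The lines also differed before silencing. With vehicle, 21 of 29 members passed, where 62.9% of all 20694 genes did. Of these, 11 were higher in HSC3 (30.6% of all genes) and 10 higher in CAL27 (32.3%), and 12 differed by more than 2-fold (31.9% of all genes). As log2 HSC3 minus CAL27, SFRP5 (8.16, SE 0.22, edgeR adjusted p = 7.4e-14), WNT5B (5.54, SE 0.32, 4.2e-10), FZD8 (3.74, SE 0.24, 1.6e-09) and WNT7A (2.93, SE 0.077, 5.5e-14) were much higher in HSC3. WNT16 (-5.45, SE 0.88, edgeR adjusted p = 5.6e-05), WNT5A (-2.90, SE 0.19, 2.5e-09), FZD4 (-2.64, SE 0.14, 1.6e-10) and WNT9A (-1.93, SE 0.23, 2.5e-06) were higher in CAL27. SFRP1 had 222 to 348 counts in the CAL27 vehicle libraries and 0 in those of HSC3. The median over all genes was -0.12 here and -0.39 with library totals in place of TMM factors, and with those totals FZD3 (edgeR adjusted p = 0.15), FZD6 (0.23) and WNT3A (0.11) no longer passed.

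The genes that make, receive and transmit the signal were followed as 6 lists drawn from general knowledge, and 8 of the 15 feedback and target genes also stand in another of them. Their counts read against all genes tested, of which 44.5% passed in CAL27 (22.6% higher and 21.8% lower, median log2 fold change -0.01) and 28.4% in HSC3 (13.0% higher and 15.4% lower, median -0.01). Of the WNT production and co-receptor list, 3 of 10 tested genes rose and 4 fell in CAL27 (median log2 fold change -0.02) and 2 of 9 rose and 4 fell in HSC3 (-0.17), so 70.0% and 66.7% passed. ROR1, a co-receptor for WNT5A, rose in both (1.69, SE 0.080, edgeR adjusted p = 1.4e-11 in CAL27, and 0.97, SE 0.089, 1.6e-05 in HSC3). Its relative ROR2 fell in CAL27 (-1.08, SE 0.25, edgeR adjusted p = 0.0012) and was not called in HSC3 (-0.17, 95% interval -1.42 to 1.08). LRP5 passed in neither line (-0.03 and -0.01), and LRP6 passed in HSC3 (-0.28, edgeR adjusted p = 0.027) but not in CAL27 (0.00). Of the R-spondin, LGR and receptor turnover list, 1 of 5 rose and 1 fell in CAL27 (median 0.04), and 2 of 5 rose and 1 fell in HSC3 (0.42), so 2 and 3 of the 5 passed.

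Of the other antagonists, none of the 5 tested rose and 4 fell in CAL27 (median log2 fold change -0.69), and 1 of 2 fell in HSC3, against 21.8% and 15.4% of all genes lower. The secreted SOSTDC1 (-3.09, SE 0.30, edgeR adjusted p = 5.9e-08) and the membrane protein APCDD1 (-2.77, SE 0.55, edgeR adjusted p = 0.00040) fell in CAL27. Both were rare there, with a mean log2 CPM of -0.57 and -1.65, and neither was tested in HSC3. APCDD1 held 70, 52 and 48 counts in the CAL27 vehicle libraries and 2, 17 and 3 with DOX. KREMEN1, a DKK receptor, fell in CAL27 (-0.69, SE 0.048, edgeR adjusted p = 3.9e-10) and in HSC3 (-2.19, SE 0.12, edgeR adjusted p = 4.6e-07). KREMEN1 and DKK1, which act together on LRP6, therefore moved in opposite directions in both lines.

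Of the beta-catenin arm, 9 of 22 tested genes rose and 8 fell in CAL27 (median log2 fold change 0.09), and 4 of 21 rose and 4 fell in HSC3 (0.12). In all 77.3% passed in CAL27, where 44.5% of all genes did, and 38.1% in HSC3, where 28.4% did. CTNNB1, which encodes beta-catenin, fell slightly in both (-0.12, edgeR adjusted p = 0.028, and -0.44, 0.00043). TCF7L1, mostly a repressor among the TCF/LEF factors, fell in both (-1.02, edgeR adjusted p = 2.6e-10, and -0.93, 1.1e-05). The co-repressor TLE2, rare in CAL27 (mean log2 CPM -1.83), fell there (-1.95, edgeR adjusted p = 0.0014) and was not called in HSC3 (-0.73, 95% interval -2.26 to 0.81). Its more abundant relative TLE1 (mean log2 CPM 5.95 in CAL27) rose in both (0.36, edgeR adjusted p = 5.9e-07, and 0.50, 0.0013). TLE3 (-0.13, edgeR adjusted p = 0.014) and TLE4 (-0.56, 1.8e-08) fell in CAL27 and were not called in HSC3 (0.25 and 0.34). Of the feedback and target genes, 6 of 11 rose and 2 fell in CAL27 (median 0.31), and 4 of 10 rose and 2 fell in HSC3 (0.33), so 72.7% and 60.0% passed. CCND1, a cell cycle gene, rose in both (1.39, edgeR adjusted p = 9e-14, and 0.55, 4e-05), and SP5 rose in CAL27 (1.05, edgeR adjusted p = 0.0038) but was not called in HSC3 (0.49, 95% interval -1.07 to 2.05). MYC (0.45, edgeR adjusted p = 2.7e-07, and 0.33, 0.0064) and RNF43 (0.31, 0.022, and 0.50, 0.01) also rose in both. Of the RNF43 exon length, 68.4% lies under another gene on the same strand. TNFRSF19 rose in HSC3 (0.35, edgeR adjusted p = 0.012) and was not called in CAL27 (0.19, 95% interval -0.28 to 0.67). LEF1 rose in CAL27 (0.31, edgeR adjusted p = 0.019) and was not called in HSC3 (-0.19, 95% interval -0.52 to 0.13). NKD1 (-0.63, edgeR adjusted p = 0.00015) and APCDD1 (-2.77, 4e-04) fell in CAL27. In HSC3, TCF7 (-0.68, edgeR adjusted p = 0.00075) and ZNRF3 (-0.29, 0.015) fell. TCF7 rose in CAL27 (0.33, edgeR adjusted p = 2e-04), and its line by DOX interaction passed (log2 difference -1.01, edgeR adjusted p = 2.4e-05). AXIN2, the feedback gene most used as a readout of beta-catenin activity, was close to absent, with 2, 17 and 4 counts in CAL27 with vehicle and 2, 6 and 0 with DOX, and 6, 0 and 0 and then 0 in all libraries of HSC3.

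Of the planar polarity arm, 1 of 11 tested genes rose and 6 fell in CAL27 (median log2 fold change -0.37), and 1 of 11 rose and 7 fell in HSC3 (-0.75). Over all genes, 21.8% and 15.4% were lower and the median was -0.01 in each line. VANGL2, a core planar polarity protein, fell in both lines (-1.31, SE 0.073, edgeR adjusted p = 1.3e-11, and -2.85, SE 0.20, 2.3e-06). So did the cadherins CELSR1 (-0.67, edgeR adjusted p = 4e-11, and -1.10, 0.00012) and CELSR2 (-0.90, edgeR adjusted p = 5.9e-13, and -1.32, 1.3e-06). The related CELSR3 fell in CAL27 (-0.38, edgeR adjusted p = 0.046) but rose in HSC3 (0.36, 0.024). Its line by DOX interaction passed (log2 difference 0.74, edgeR adjusted p = 0.0075). PRICKLE1 fell in HSC3 (-1.06, edgeR adjusted p = 0.0012) and was not called in CAL27 (0.08, 95% interval -0.04 to 0.20).

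**Figure D5:**
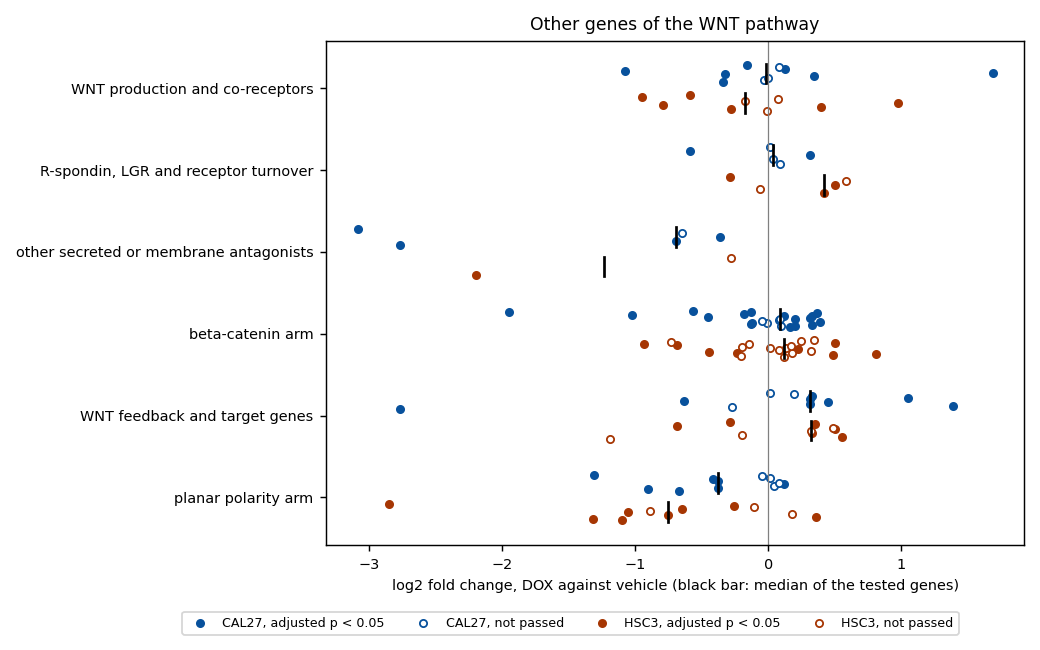
Log2 fold change (DOX against vehicle, edgeR) of each tested gene of the 6 pathway lists, CAL27 in blue above HSC3 in orange, filled where the adjusted p was under 0.05, with the median of each list as a black bar. The planar polarity medians lie at -0.37 and -0.75, and those of the feedback and target genes at 0.31 and 0.33.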

How the data were processed

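RNA-seq had been run on polyA RNA from cells cultured in triplicate, with TruSeq Stranded mRNA libraries. The deposited files are 1 table of raw counts per gene symbol for each line, made by the authors with FastQC 0.11.9, STAR 2.7.9a, Subread 2.0.1 and featureCounts on GRCh38, per the submitters' processing notes. The study's methods write the build with what may be an annotation release number. Beyond that, the annotation and strand setting of the counting are not given in the sources used here. The DOX columns of CAL27 are numbered 4 to 6 and were assigned to the group only. All columns were used.

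Counts were tested in R 4.3.3 with edgeR 4.0.16 (filterByExpr with a count minimum of 10 and total minimum of 15, TMM, robust glmQLFit, two-sided glmQLFTest) on all genes of each line, and on all 12 libraries for the interaction and the difference between lines. Adjusted p-values are Benjamini-Hochberg over all genes tested, and a gene passed under 0.05, with a log2 fold change above 1 in size given in addition. The study used DESeq2, which was an alternative (1.42.0). Intervals are 95%. An exact permutation test of 3 against 3 cannot go below p = 0.1. p-values measure the spread between libraries, which may be technical. CPM share 1 TMM scale over 12 libraries, and RPKM use canonical transcripts of GENCODE v44, which had all 37 members. Counts per molecule were estimated from the share of genes without counts among those expected at 8 to 16 counts. The estimate takes each such gene without counts as missed in sampling, so differences between replicates also raise it. Chi-square per degree of freedom between replicates was 7.27 to 132, where independent counts would give about 1. Several counts per molecule raise it as well, so it does not show by itself how far replicates differed. HSC3 replicate numbers did not pair the libraries (correlations -0.025, 0.046 and -0.0064).

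Members and lists were chosen with earlier results of these data known. Values in every library are given for members past 2-fold in a line or with an interaction. Other members are given by group, and list genes past 2-fold in a line are named with AXIN2, LEF1, CTNNB1, LRP5 and LRP6. The feedback and target genes that passed, the other TLEs and CELSR3 are also named.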

Additional observations from a re-analysis of the deposited data

Results flagged for a closer look

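The response to DOX differed between the lines, by a test of the difference itself (the interaction in edgeR over all 12 libraries), for 7 of 29 tested members. That is 24.1% of them, where 20.6% of all 20694 genes passed. As log2 response in HSC3 minus CAL27, the values were 1.20 for WNT10A and 0.87 for WNT2B. They were -1.67 for FZD8, -1.08 for WNT7B, -0.96 for WNT7A, -0.50 for FZD1 and -0.48 for DKK1. FZD8 and WNT7B passed in both lines with opposite signs. WNT10A and DKK1 passed in both lines with the same sign and unequal size. WNT7A and WNT2B passed in CAL27 only and FZD1 in HSC3 only. The spread of counts per molecule, 2.66 to 3.55 in CAL27 and 4.40 to 17.5 in HSC3, moves with the line. With counts divided by counts per molecule, the 7 values ran from -1.65 to 1.21 and each of these members passed again. Scaling to library size undoes the division of a library by 1 number, so these values could hardly move. Whether depth in molecules has a part in the 7 differences was not tested.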

How the results depend on the processing

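Requiring a log2 fold change above 1 in size left 1 member higher and 5 lower in CAL27, 1 higher and 3 lower in HSC3, 3 with an interaction and 12 different between the lines. In 1 fit over all 12 libraries, 5 members were higher (without FZD2 and WNT9A, and with DKK2, which is tested there) and 7 lower in CAL27, in place of 6 and 11, while over all genes 5083 of 20694 passed in place of 8554 of 19239. Leaving out 1 library at a time gave 4 to 7 higher and 10 to 11 lower in CAL27, 3 to 5 higher and 6 to 9 lower in HSC3, 6 to 8 interactions and 20 to 24 differences between the lines. With the replicate number as a block in HSC3, 3 members were higher and 9 lower. The block ended the call of DKK2 and no other. No paired analysis was possible in CAL27 because its DOX columns carry no replicate numbers. DKK2 fell below the filter once counts were divided by counts per molecule.

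Among the members that passed only under an alternative were FZD3 in CAL27 with library totals or counts per molecule (edgeR adjusted p = 0.039 each), DKK2 in CAL27 without the filter (0.0026), WNT6 in CAL27 without the filter (0.025), with counts per molecule (0.028) or without column 5 (0.030), and FZD4 (0.038) and WNT4 (0.018) in HSC3 in the fit over 12 libraries. The interaction of SFRP5 passed with DESeq2 (adjusted p = 0.045), and that of WNT3 with counts divided by counts per molecule (edgeR adjusted p = 0.036).

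Signs turned only for values that had not passed. FZD6 in HSC3 was 0.0022 with DESeq2 size factors and 0.0019 with DESeq2, the interaction of SFRP1 was -0.25 with DESeq2, that of WNT5A was -0.071 with counts per molecule, and WNT6 between the lines was -0.026 with library totals. Without 1 library, the log2 fold change ran from -0.019 to 0.084 for FZD1 and -0.24 to 0.32 for FZD9 in CAL27, and from -0.16 to 0.096 for FZD3 and -0.10 to 0.057 for FZD6 in HSC3. The interaction ran from -0.56 to 0.14 for FZD10, -0.025 to 0.22 for FZD3, -0.19 to 0.056 for FZD4, -1.19 to 0.51 for WNT10B, -1.04 to 2.12 for WNT16, -0.31 to 0.24 for WNT5A and -1.44 to 0.76 for WNT6. The cause of these shifts was not tested. Depth in molecules limits FZD10, DKK2, WNT6 and the other members under 100 counts. It also limits WNT5A (86 to 295 counts) and WNT3A (142 to 350) in HSC3, at 4.40 to 17.5 counts per molecule. The same holds in CAL27 for the list genes APCDD1, SOSTDC1, SP5, ROR2 and TLE2, with mean log2 CPM from -1.83 to -0.42.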

Other observations

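Neighbouring WNT genes could differ in their response in CAL27. WNT9A (chr1:227918656-227947932) rose and its neighbour WNT3A (chr1:228006998-228061271) fell. WNT3 and WNT9B on chromosome 17 held 56 to 104 and 0 to 1 counts in the CAL27 vehicle libraries, and WNT10B and WNT1 on chromosome 12 held 12 to 22 and 0. These pairs were picked by position after the values were seen, and no test of neighbourhood was run.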
